A study of Mus musculus with 69 samples.

Results

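The collagen genes described here are the 44 genes, of 24411 in the count table, whose symbol is Col followed by a type number, the letter a and a chain number. The rule used the symbol alone and no measured value, although earlier results of these data were known when it was set. All 44 reached the 2 counts over all libraries that a gene needed to be tested, although 10 of them averaged fewer than 10 counts a library. By the kind of chain they fall into 11 fibrillar genes, 9 FACIT genes (fibril-associated collagens with interrupted helices), 6 genes of type IV, 6 of type VI, 4 transmembrane collagens, 4 short chain and anchoring collagens, and 4 multiplexins and others.

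A collagen molecule is a triple helix of polypeptide chains, and each kind of chain is encoded by a gene of its own. Fibrillar types such as I and III form the cables of the interstitium and are made mainly by fibroblasts and pericytes, FACIT chains decorate those fibrils, and type VI chains form beaded microfibrils around cells. Type IV collagen is the sheet-forming collagen of basement membranes: its α1 and α2 chains are nearly universal, whereas the α3, α4 and α5 chains build the mature membrane of the glomerulus and of distal tubule segments and are the chains altered in Alport syndrome.

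The study measured newly made RNA of the mouse collecting duct by thiouracil tagging. Uprt, a uracil salvage enzyme of Toxoplasma gondii, sat in the Rosa26 locus behind a stop cassette that Cre removes, so that 4-thiouracil (4-TU) should enter RNA only where Cre had acted, and the tagged RNA was biotinylated and pulled down on streptavidin. Every mouse carried the UPRTf/+ allele with Hoxb7Cre or with the driver that the labels spell Atp6b1v1Cre (the gene is Atp6v1b1), and received 430 mg/kg of 4-TU by injection 4 hours before dissection. Hoxb7Cre acts in the collecting duct, and Atp6v1b1Cre in intercalated and double-positive cells of the duct. The study found Atp6v1b1Cre reporter signal in the interstitium of some kidneys too.

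The 69 libraries comprise 48 pulldowns and 21 of unselected kidney RNA. Control mice gave 10 Hoxb7 Pulldown, 11 Atp6b1v1 Pulldown and 21 Total libraries. Mice with iAKI, made ischemic by clamping both renal pedicles, gave 7 Hoxb7 and 6 Atp6b1v1 pulldowns. Mice with vAKI, volume depleted by withholding water and food, gave 7 pulldowns with each driver. The injured mice were 5.5 months old, as were the controls other than 5 pulldown and 5 Total libraries of mice aged 3 months. The injury comparisons used the 22 male pulldowns of 5.5 months (4 control, 4 iAKI and 3 vAKI for Hoxb7 Pulldown, and 4, 3 and 4 for Atp6b1v1 Pulldown), and the comparisons of RNA pools used all 42 control libraries of both sexes. The labels name no mouse. The study's supplement counts as many mice per treatment as there are male pulldowns of 5.5 months, and no such count was used for the other libraries, whose p-values measure the spread between libraries.

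Libraries held 12618062 to 30305464 counts (median 20868430), and no replicates were near-duplicates of each other. Library numbers in the labels fall into 3 runs with gaps between them, called series A, B and C here. The summed level of 5 principal cell markers was 2608 to 3322 CPM (counts scaled to library size) in the male Hoxb7 controls, against 936 to 1176 in iAKI and 1050 to 1158 in vAKI, and a shift in cell composition cannot be told apart from less RNA per cell in bulk RNA. RNA of interstitial markers was present in the pulldowns, and its source was not tested: 8 fibroblast and interstitial markers, none of them at 0 in a group, summed to 120 to 282 CPM in Total RNA, 38.8 to 87.2 in the Hoxb7 controls and 100 to 169 in the Atp6b1v1 controls. By the calling rule given below, 6 of the 8 were lower than Total RNA with each driver (median log2 fold changes -2.27 and -1.97). The shares of all genes were 17.9% and 16.4%. In the Atp6b1v1 controls Pdgfra stood at 56.8 to 100 CPM against 23.7 to 71.4 in Total RNA, and Dcn at 4.35 to 11.4 against 41.8 to 114.

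Collagen mRNA of the kidney was mainly basement membrane mRNA. The 44 genes took 0.197% ± 0.027 of all counts in Total RNA (SD, n = 21), 0.237% ± 0.054 in Hoxb7 Pulldown (SD, n = 10) and 0.229% ± 0.036 in Atp6b1v1 Pulldown (SD, n = 11). Per kilobase of exon, Col4a3 stood first in Total RNA at 58.8 ± 9.50 CPM per kb (SD, n = 21), followed by Col4a1 at 45.4 ± 6.44, Col4a2 at 36.6 ± 5.63, Col4a4 at 33.6 ± 4.71 and Col18a1, the precursor of endostatin and a basement membrane proteoglycan, at 32.9 ± 4.53. From the second place on, each of these lay within 2 SD of the next, and Col4a1 lay within 2 SD of Col4a3 by the SD of Col4a3. These SDs are between libraries, and the order of the genes within each library was not compared. Col27a1, a fibrillar chain, came next at 13.9 ± 8.54 CPM per kb and Col4a5 at 9.88 ± 0.906. The fibrillar genes that make up most fibrils lay well below, with Col1a2 at 5.27 ± 1.13, Col3a1 at 3.78 ± 0.944 and Col1a1 at 2.77 ± 0.919 CPM per kb. In both pulldowns Col4a3 was again first and Col4a4 second: 80.3 and 44.0 CPM per kb in Hoxb7 Pulldown, where Col4a1 stood at 30.1 and Col4a2 at 20.0, and 72.5 and 37.1 in Atp6b1v1 Pulldown, where Col4a1 stood at 36.4 and Col4a2 at 25.2.

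Control pulldowns were compared with Total RNA. Pulldowns hold RNA tagged within 4 hours, whereas Total RNA is of any age. The study adds that tagging may overrepresent uracil-rich RNA. Cell type, RNA turnover and uracil content therefore cannot be told apart in these differences. In Hoxb7 Pulldown 20 of the 44 genes were lower, against 17.9% of all genes tested, and 4 were higher, against 14.6%. In Atp6b1v1 Pulldown 18 were lower, against 16.4% of all genes, and 2 were higher, against 11.3%. The median log2 fold change of the 44 genes was -0.764 in Hoxb7 Pulldown and -0.753 in Atp6b1v1 Pulldown, where that of all genes was 0.107 in both. A gene was called here, as in every later comparison, when its adjusted p was under 0.05 (edgeR's quasi-likelihood test, Benjamini-Hochberg over 21175 genes) and it differed by 1 or more on the log2 scale, up or down. Both comparisons share the Total libraries, so each set of values stands on its own.

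**Figure D1:**
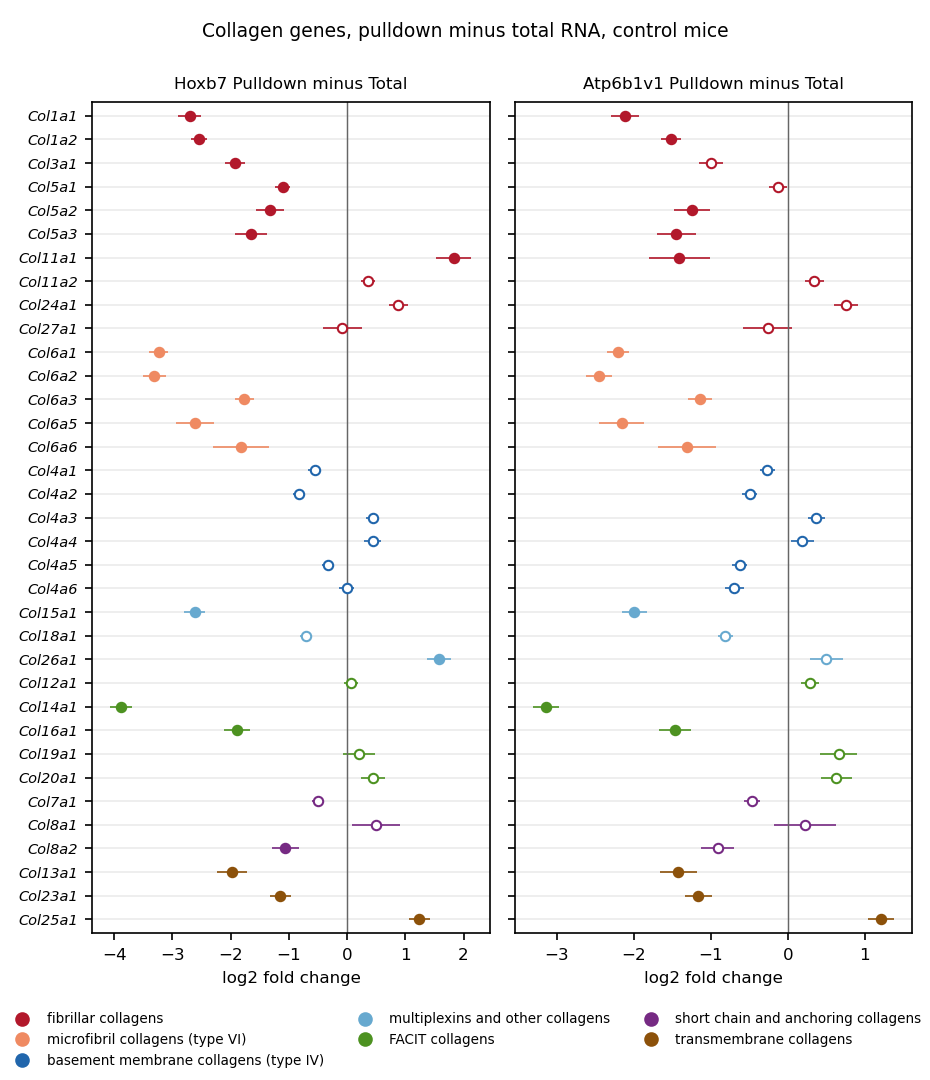
Log2 fold changes of 35 collagen genes (rows, coloured by family) in control mice, Hoxb7 Pulldown minus Total on the left and Atp6b1v1 Pulldown minus Total on the right, each panel with its own horizontal scale. Points are the fitted values with bars of 1 SE, and filled points are called genes. The type VI genes plotted and Col14a1 lie to the left of 0 in both panels, with Col14a1 at -3.88 and -3.14, while the type IV genes lie between -0.83 and 0.44.

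Col14a1, a FACIT chain of fibroblast-rich tissue, was the lowest of the 44: its lowest, median and highest levels were 15.5, 41.5 and 70.1 CPM in Total RNA, 1.94, 2.85 and 3.73 in Hoxb7 Pulldown and 2.22, 4.93 and 6.92 in Atp6b1v1 Pulldown. No pulldown library reached the lowest Total library. Its log2 fold change was -3.88 ± 0.18 (SE, adjusted p = 1.85e-23) in Hoxb7 Pulldown and -3.14 ± 0.17 (adjusted p = 1.38e-21) in Atp6b1v1 Pulldown.

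All 6 type VI genes were called lower in both pulldowns in the fit of all 42 controls. Col6a1 ran at 10.3, 23 and 35.2 CPM (lowest, median, highest) in Total RNA, at 1.12, 2.77 and 3.61 in Hoxb7 Pulldown and at 2.49, 4.20 and 7.85 in Atp6b1v1 Pulldown. Col6a2 ran at 5.37, 11.4 and 21.9 CPM, then 0.656, 1.16 and 1.93, then 0.725, 2.06 and 3.36. For both genes no pulldown library reached the lowest Total library, and the log2 fold changes were -3.24 and -3.31 in Hoxb7 Pulldown and -2.20 and -2.45 in Atp6b1v1 Pulldown. Col6a3, which completes the trimer with Col6a1 and Col6a2, was lower by less: its log2 fold change was -1.77 in Hoxb7 and -1.14 in Atp6b1v1 Pulldown. The scarcer Col6a5 had 0.529, 1.43 and 4.34 CPM in Total RNA, 0.0878, 0.196 and 0.347 in Hoxb7 Pulldown and 0.0907, 0.293 and 0.914 in Atp6b1v1 Pulldown, with log2 fold changes of -2.62 and -2.16. Col6a6 (-1.83 and -1.31) and Col6a4 (-1.75 and -1.73, mean of 8.07 counts) were lower too. Over 12 alternative settings Col6a6 lost its call in 1 with Hoxb7 (-3.11 to -0.33). With Atp6b1v1 it lost its call in 1 as well (-1.599 to -0.794). Col6a4 lost its call in 2 with Hoxb7 (-2.14 to -1.04), and Col6a3 in 2 with Atp6b1v1. Col6a6 ran from 0.082 to 0.909 CPM in female Hoxb7 controls and from 0.174 to 1.14 in female Total RNA, which overlap. In males it ran from 0.844 to 3.11 and from 2.5 to 30.8, which overlap too.

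Of the fibrillar genes, 6 were lower in Hoxb7 Pulldown and 5 in Atp6b1v1 Pulldown. Col1a1, the α1 chain of type I collagen, had 9.94, 17.7 and 33.4 CPM in Total RNA, 0.986, 2.63 and 4.71 in Hoxb7 Pulldown and 2.67, 4.12 and 6.92 in Atp6b1v1 Pulldown, and no pulldown overlapped with Total (log2 fold change -2.71 ± 0.20 and -2.12 ± 0.19). Its partner Col1a2 had 32.1, 67.6 and 89.0 CPM, then 5.15, 10.9 and 15.9, then 16.9, 21.1 and 31.6, again without overlap, at -2.54 and -1.52. Col3a1, the single chain of type III collagen, was called only in Hoxb7 Pulldown (-1.92 ± 0.17), where it had 3.42, 11.1 and 12.6 CPM against 19.9, 36.1 and 50.1 in Total RNA. In Atp6b1v1 Pulldown it had 12.9, 16.3 and 27.3 CPM, at a log2 fold change just inside the limit of 1. Col5a2 and Col5a3, minor chains that co-assemble with type I, were lower in both (-1.33 and -1.65 in Hoxb7, -1.25 and -1.45 in Atp6b1v1), and Col5a1 in Hoxb7 Pulldown (-1.10). The call of Col5a1 was lost in 3 of 12 alternative settings (-1.29 to -0.79).

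Other lower genes included Col15a1, a multiplexin of the basement membrane zone of capillaries and muscle, with 10.1, 21.4 and 32.3 CPM in Total RNA, 1.59, 3.31 and 6.58 in Hoxb7 Pulldown and 2.95, 5.09 and 7.49 in Atp6b1v1 Pulldown. Its log2 fold change was -2.62 and -1.99, without overlap. Col16a1, Col13a1 and Col23a1 were lower in both pools, at -1.14 to -1.97, as were Col28a1 and Col22a1, which averaged 3.95 and 1.38 counts. Col8a2 was lower in Hoxb7 Pulldown (-1.06).

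Few genes were called higher than Total RNA. Col25a1, a transmembrane collagen, had 0.369, 0.834 and 1.49 CPM in Total RNA, 1.60, 1.89 and 2.86 in Hoxb7 Pulldown and 0.838, 2.10 and 2.99 in Atp6b1v1 Pulldown, and rose by 1.24 ± 0.17 and 1.21 ± 0.17 on the log2 scale. Hoxb7 Pulldown alone did not overlap with Total. Col26a1 (1.57 ± 0.21) and Col10a1 (1.11 ± 0.36, mean of 7.45 counts) were called higher in Hoxb7 Pulldown, and Col2a1 (1.02 ± 0.32, mean of 4.74 counts), the fibrillar chain of cartilage, in Atp6b1v1 Pulldown. The call of Col10a1 was lost in 4 of 12 alternative settings (0.51 to 1.58), and that of Col2a1 was kept in 4 of 11, with a value of -0.08 in females alone.

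Col11a1 set the pulldowns apart. This minor fibrillar chain had 0, 0.307 and 1.14 CPM in Total RNA, 0.661, 1.06 and 3.00 in Hoxb7 Pulldown and 0.0484, 0.101 and 0.317 in Atp6b1v1 Pulldown. It was higher than Total in Hoxb7 Pulldown (1.84 ± 0.30) and lower in Atp6b1v1 Pulldown (-1.41 ± 0.40). The latter call was lost in 3 of 12 alternative settings (-1.74 to -0.90). Between the pulldowns, Atp6b1v1 minus Hoxb7, 2 of the 44 genes were higher, against 2.58% of all genes tested, and 2 were lower, against 1.53%. Col11a1 was lower (-3.24 ± 0.40, adjusted p = 4.65e-08) and its libraries did not overlap. Col26a1 was lower by -1.08 ± 0.25, with 4.30, 8.37 and 24.3 CPM in Hoxb7 Pulldown and 1.68, 4.57 and 9.19 in Atp6b1v1 Pulldown, which overlap. Col6a1 (1.03 ± 0.17) and Col1a2 (1.02 ± 0.15) were higher in Atp6b1v1 Pulldown, and the Col1a2 libraries did not overlap. Of the 8 interstitial markers, whose sum was higher in Atp6b1v1 Pulldown as given above, 2 were called higher (median 0.252), as were 5 of 6 macrophage and leukocyte markers (2.07). Markers of urothelium (4 of 5, median -1.33) and of principal cells (4 of 5, -1.35) were lower. The part of these cells in the differences was not tested. Over 12 alternative settings the call of Col1a2 was lost in 6 (0.81 to 1.21), that of Col6a1 in 3 (0.83 to 1.34) and that of Col26a1 in 2 (-1.98 to -0.64).

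None of the 6 type IV genes was called against Total RNA in either pulldown, since no log2 fold change reached 1 in size. The adjusted p was nevertheless under 0.05 for 5 of the 6 with each driver, 2 higher and 3 lower in Hoxb7 Pulldown and 1 higher and 4 lower in Atp6b1v1 Pulldown. By adjusted p alone 35 of the 44 collagen genes passed with each driver, and the share of all genes that did is not given here. Col4a3 had 446, 588 and 779 CPM in Total RNA, 386, 853 and 1128 in Hoxb7 Pulldown and 384, 721 and 1023 in Atp6b1v1 Pulldown, with log2 fold changes of 0.44 ± 0.11 and 0.37 ± 0.11. Col4a4 had 263, 356 and 432 CPM, then 185, 447 and 838, then 187, 375 and 637 (0.44 ± 0.15 and 0.19 ± 0.15). All 3 ranges overlap for both genes. Col4a1 leaned the other way, with 263, 337 and 415 CPM in Total RNA, 130, 230 and 352 in Hoxb7 Pulldown and 195, 268 and 349 in Atp6b1v1 Pulldown (-0.56 ± 0.11 and -0.27 ± 0.10). Col4a2 had 187, 241 and 296 CPM, then 79.9, 137 and 177, then 102.7, 170 and 219 (-0.83 ± 0.11 and -0.50 ± 0.10). Col4a5 had 55.1, 67.4 and 77.5 CPM, then 35.2, 45.7 and 76.5, then 32, 40.2 and 53.6, and Col4a6 had 4.30, 6.25 and 10.6 CPM, then 4.00, 6.62 and 9.01, then 2.39, 3.52 and 5.46. Col18a1 had 177, 236 and 297 CPM in Total RNA, 78.7, 127 and 220 in Hoxb7 Pulldown and 103.3, 124 and 162 in Atp6b1v1 Pulldown, and was not called (-0.70 ± 0.10 and -0.81 ± 0.10). All Hoxb7 libraries of Col4a2 and all Atp6b1v1 libraries of Col18a1 and Col4a5 lay below the lowest Total library.

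The 6 type IV genes lie head to head in pairs, which is why the DNA between their starts is shown. Col4a4 (chr1:82448423-82586849, minus strand) and Col4a3 (chr1:82586921-82722059, plus strand) start 71 bases apart in the GRCm38 annotation. Col4a6 (chrX:141165403-141474076, minus strand) and Col4a5 (chrX:141475385-141689234, plus strand) start 1308 bases apart, and Col4a1 (chr8:11198423-11312826, minus strand) and Col4a2 (chr8:11312805-11449287, plus strand) share 22 bases at their starts. The sequences below are from RefSeq's GRCm38.p6, written 5′ to 3′ on the strand of the first gene named. Capitals mark a match, on either strand, to the TATA box string TATAAA, to the CCAAT box, to the GC box core GGGCGG (read as CCGCCC from the other strand) or to the AP-1 string TGANTCA. The Col4a4-Col4a3 stretch (chr1:82586850-82586920, minus strand) holds none of the 4 strings, and 69% of its bases are G or C. The Col4a6 stretch is chrX:141474077-141474326 (minus strand), and the Col4a5 stretch is chrX:141475169-141475384 (plus strand).
Col4a4-Col4a3 shared upstream: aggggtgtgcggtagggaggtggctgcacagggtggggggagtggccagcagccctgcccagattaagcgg
Col4a6 upstream: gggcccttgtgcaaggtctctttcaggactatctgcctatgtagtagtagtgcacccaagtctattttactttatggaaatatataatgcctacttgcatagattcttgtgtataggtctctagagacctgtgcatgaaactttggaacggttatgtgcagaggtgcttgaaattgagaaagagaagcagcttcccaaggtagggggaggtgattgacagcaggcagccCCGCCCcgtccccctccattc
Col4a5 upstream: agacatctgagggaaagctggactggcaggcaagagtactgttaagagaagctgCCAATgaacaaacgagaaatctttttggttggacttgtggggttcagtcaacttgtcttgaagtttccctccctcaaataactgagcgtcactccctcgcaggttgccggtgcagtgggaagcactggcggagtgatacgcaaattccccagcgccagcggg

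Of the 44 genes, 35 had an upstream window of 250 bases in the RefSeq table. TATAAA was present in 5 of the 35 windows against 12.4% of 32851 windows of all genes, CCAAT in 12 against 33.8%, GGGCGG in 21 against 32.7%, and TGANTCA in 1, Col6a1, against 6.75%. A match is a description of the letters and not a binding site.

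Ischemia was read first in Hoxb7 Pulldown, where 9 of the 44 collagen genes rose and 1 fell in iAKI, against 1.52% and 0.784% of all genes tested. The 9 were the fibrillar Col1a1, Col3a1, Col1a2 and Col5a3, the type VI trio Col6a1, Col6a2 and Col6a3, the multiplexin Col15a1 and the transmembrane Col13a1. Col25a1 fell. The other 34 genes had log2 fold changes from -2.41 to 2.34, the ends being Col22a1 and Col9a1, which averaged 0.27 and 0.32 counts, and the median of all 44 was 0.121 against 0 for all genes.

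**Figure D2:**
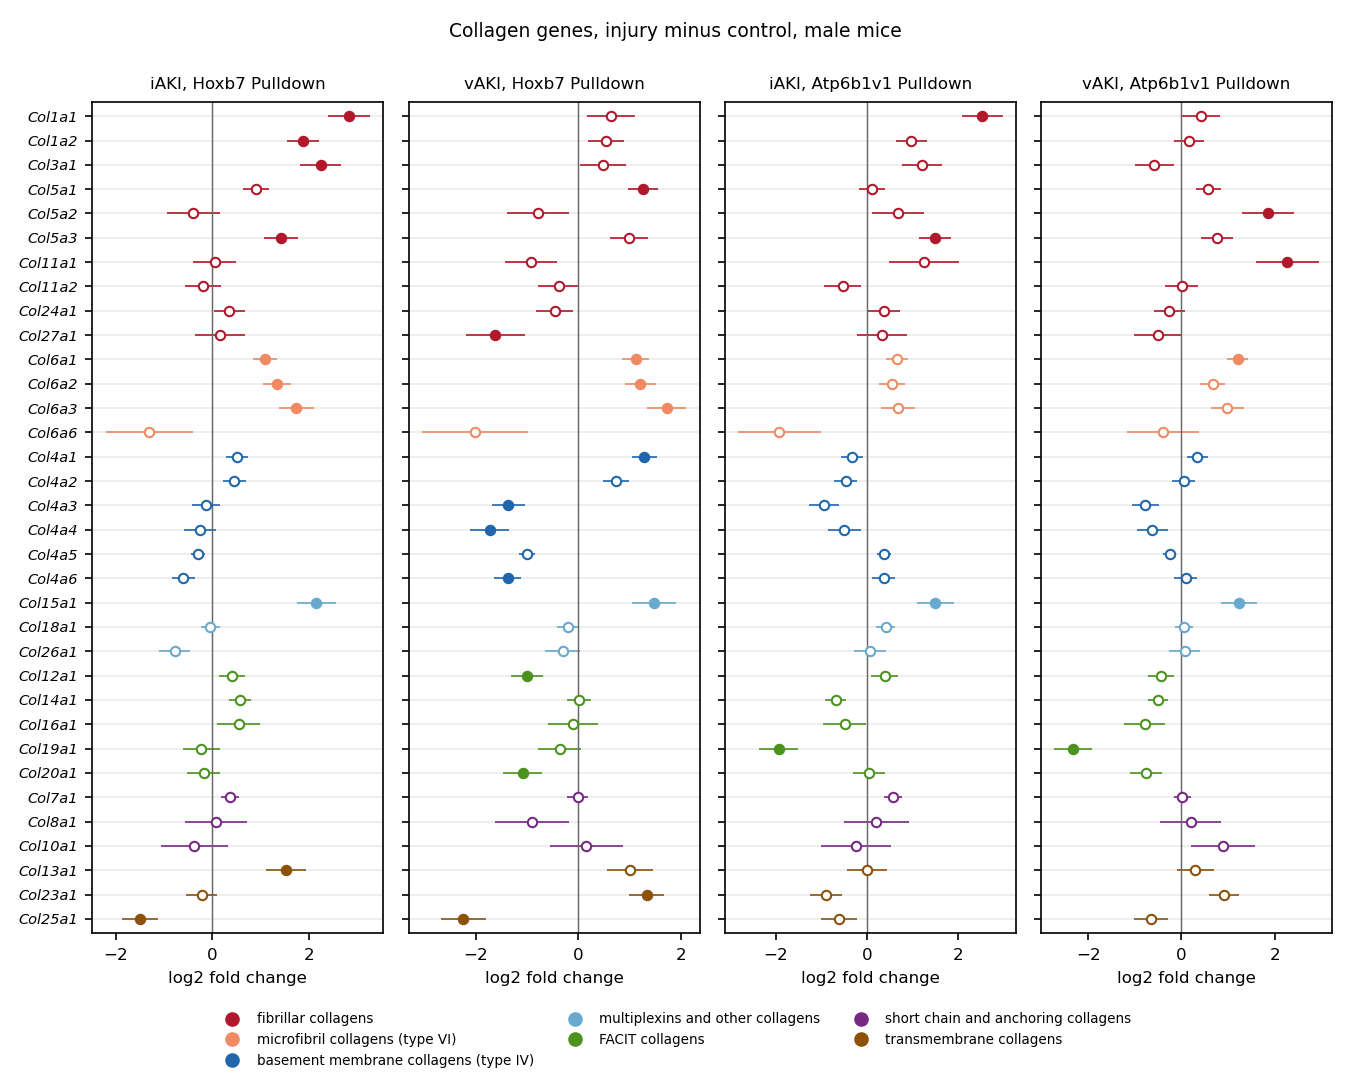
Log2 fold changes of 34 collagen genes (rows, coloured by family) in male pulldowns, injury minus control, in 4 panels with separate horizontal scales. Points are the fitted values with bars of 1 SE, and filled points are called genes. Col1a1 is filled in both iAKI panels (2.83 and 2.53) and open in both vAKI panels, the type VI trio is filled in both Hoxb7 panels, and type IV genes are filled only in the panel of vAKI in Hoxb7 Pulldown.

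Col1a1 (chr11:94936224-94953042, plus strand) stood at 2.57, 3.78, 2.22 and 1.45 CPM in the 4 male Hoxb7 controls and at 6.73, 35.0, 7.89 and 20.8 CPM in the 4 iAKI libraries. Every iAKI library lay above every control, although the iAKI libraries themselves spanned from 6.73 to 35.0. The log2 fold change was 2.83 ± 0.44 (SE, adjusted p = 0.000891). In Atp6b1v1 Pulldown the controls (replicates 6, 9, 10 and 11) had 4.40, 4.12, 4.37 and 3.15 CPM and the iAKI libraries 26.2, 10.5 and 32.9, again apart, with a log2 fold change of 2.53 ± 0.44 (adjusted p = 0.0016). This was the collagen gene called in iAKI with both drivers in every fit that left out a single library, at 2.23 to 3.10 in Hoxb7 Pulldown and 2.21 to 2.89 in Atp6b1v1 Pulldown.

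Col3a1 (chr1:45311538-45349706, plus strand) stood at 12.1, 12.6, 4.54 and 3.42 CPM in the Hoxb7 controls and at 16.5, 72.7, 20.7 and 43.0 in iAKI, a log2 fold change of 2.24 ± 0.43 (adjusted p = 0.00403). The first pair of controls belongs to series A and the second to series B, while all 4 iAKI libraries are of series A, and the lowest iAKI library lay only a little above the series A controls. Col1a2 stood at 11.1, 14.5, 8.64 and 5.16 CPM against 19.0, 64.0, 18.9 and 41.7 in iAKI (1.88 ± 0.33, adjusted p = 0.00228). In both genes iAKI replicate 5 was highest and replicate 7 second, as for Col1a1. In Atp6b1v1 Pulldown Col3a1 had 14.9, 21.6, 12.9 and 15.3 CPM in controls and 34.4, 19.1 and 58.6 in iAKI, which overlap, and it was not called (1.21 ± 0.44, adjusted p = 0.086).

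Col15a1 (chr4:47208161-47313167, plus strand) stood at 2.99, 3.63, 2.32 and 1.59 CPM in the Hoxb7 controls and at 5.93, 21.5, 5.76 and 13.3 in iAKI (2.16 ± 0.41, adjusted p = 0.00354). Col6a3 (chr1:90765923-90843971, minus strand) stood at 5.86, 6.39, 2.81 and 3.75 CPM and at 8.65, 28.4, 7.80 and 17.4 in iAKI (1.74 ± 0.36, adjusted p = 0.00727). Both had the same order of iAKI libraries, replicates 5 and 7 above 4 and 6. Col6a2 (1.34 ± 0.28) and Col6a1 (1.09 ± 0.24) rose by less. Col13a1, a collagen of cell-matrix junctions, stood at 1.60, 1.74, 0.889 and 0.750 CPM and at 3.46, 4.39, 3.25 and 3.25 in iAKI (1.53 ± 0.42, adjusted p = 0.0305), with little spread among the iAKI libraries. Col5a3 rose by 1.42 ± 0.35. Col25a1, the only gene of the 44 that fell, stood at 1.90, 1.60, 2.86 and 1.88 CPM in controls and 0.692, 0.861, 0.630 and 0.688 in iAKI (-1.5 ± 0.38, adjusted p = 0.0194).

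**Figure D3:**
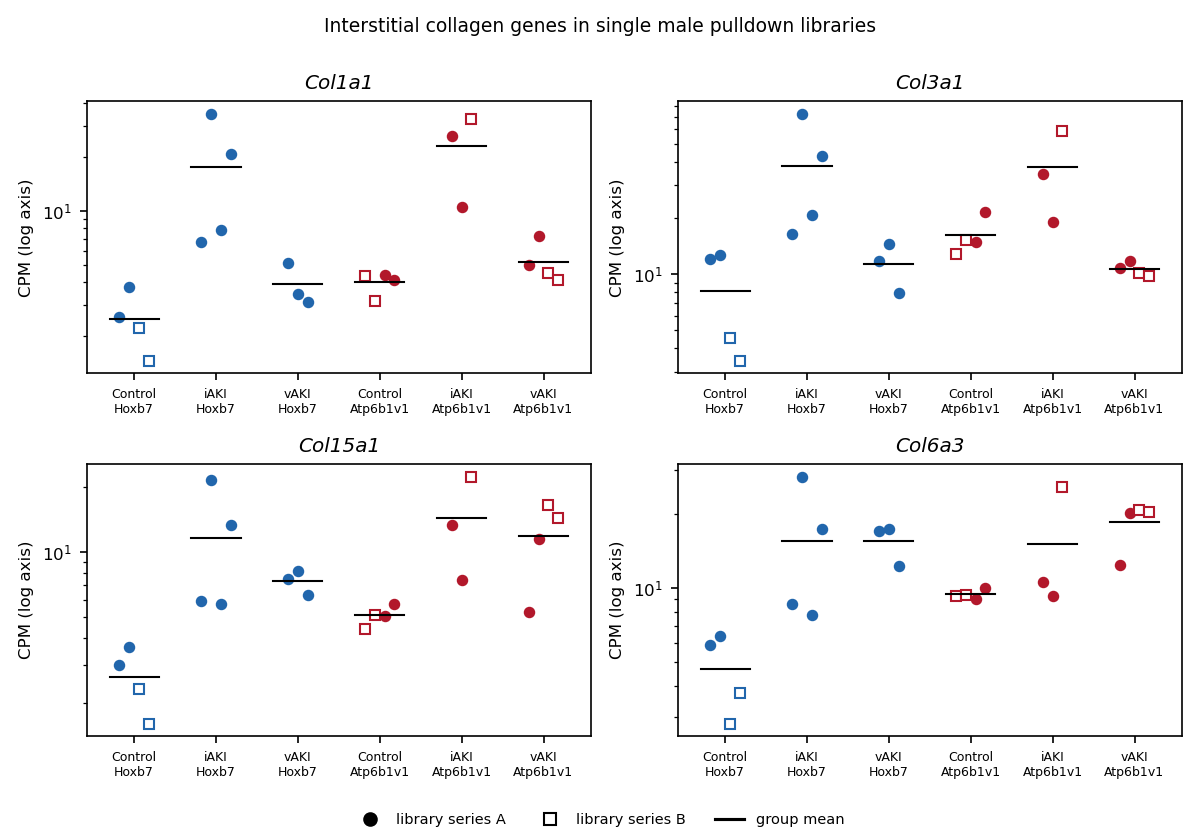
CPM (log axis) of Col1a1, Col3a1, Col15a1 and Col6a3 in each male pulldown, by driver and treatment. Points are single libraries, filled circles of series A and open squares of series B, and lines are group means. All 4 iAKI Hoxb7 libraries of Col1a1 (6.73 to 35.0 CPM) lie above the 4 controls (1.45 to 3.78), and in the Hoxb7 controls the series B libraries lie below the series A libraries.

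Upstream DNA of 3 of the genes that rose is shown because replicates 5 and 7 were the highest iAKI libraries for each. The windows are the 250 bases before each start in RefSeq's table of GRCm38.p6, 5′ to 3′ on the strand of the gene. The gene coordinates given here come from GENCODE, and its start of Col15a1 lies downstream of the RefSeq start. The windows lie as follows: Col3a1 at chr1:45311288-45311537 (plus strand), Col15a1 at chr4:47207762-47208011 (plus strand) and Col6a3 at chr1:90843972-90844221 (minus strand). Capitals mark the TATAAA match of Col3a1. The other windows hold none of the 4 strings.
Col3a1 upstream: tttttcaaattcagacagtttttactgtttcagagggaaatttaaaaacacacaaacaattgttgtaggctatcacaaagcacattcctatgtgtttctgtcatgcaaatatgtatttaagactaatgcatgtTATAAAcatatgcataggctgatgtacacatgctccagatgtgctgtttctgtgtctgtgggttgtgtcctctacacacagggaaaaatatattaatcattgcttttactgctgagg
Col15a1 upstream: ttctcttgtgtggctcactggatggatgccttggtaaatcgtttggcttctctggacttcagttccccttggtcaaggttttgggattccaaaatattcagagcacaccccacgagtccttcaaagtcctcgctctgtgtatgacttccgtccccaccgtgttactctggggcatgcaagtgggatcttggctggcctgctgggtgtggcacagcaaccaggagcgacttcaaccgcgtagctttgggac
Col6a3 upstream: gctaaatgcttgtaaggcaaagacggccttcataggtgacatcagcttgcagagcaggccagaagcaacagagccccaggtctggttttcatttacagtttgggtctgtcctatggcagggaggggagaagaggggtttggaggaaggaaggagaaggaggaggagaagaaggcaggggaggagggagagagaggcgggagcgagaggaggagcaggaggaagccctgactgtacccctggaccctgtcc

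The summed interstitial markers were higher as well. Their sum over 8 markers was 38.8 to 79.7 CPM in the male Hoxb7 controls and 88.2 to 165 CPM in iAKI. Pdgfrb, the receptor that marks pericytes and fibroblasts, stood at 20.8, 17.3, 12.1 and 7.78 CPM in controls and at 26.1, 67.6, 21.2 and 36.4 in iAKI, with the same iAKI libraries highest as for Col1a1. Other markers of the list did not share that order: Dcn stood at 13.8, 8.00, 12.1 and 9.48 CPM and Pdgfra at 48.5, 74.7, 42.8 and 42.7 in iAKI, and 2 of the 8 markers were called higher. Havcr1, a marker of injured proximal tubule, stood at 1.48, 1.60, 3.01 and 5.06 CPM in the controls and at 42.2, 215, 49.2 and 176 in iAKI, highest in replicates 5 and 7 like Col1a1, and in iAKI Atp6b1v1 Pulldown at 64.9, 4.76 and 273. Markers of fat moved as well: 4 of 5 fell in iAKI Hoxb7 Pulldown (median log2 fold change -1.33) and 0 of 5 in iAKI Atp6b1v1 Pulldown (0.957), and the difference between the drivers was called in 5 of 5. In vAKI Hoxb7 Pulldown 3 of 5 fell. The part of these cells and of Havcr1 in the collagen values was not tested.

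The iAKI calls in Hoxb7 Pulldown were fewer with females. Females alone gave 1 called collagen gene, Col1a1 (1.59), with Col6a3 at 0.050, Col15a1 at 0.22 and Col5a3 at -0.71. Both sexes together gave 5: Col1a1 (2.29), Col3a1 (1.55), Col1a2 (1.32), Col6a2 (1.13) and Col25a1 (-1.15). Of the 10 calls in males, 6 held in every fit without a single library. Col13a1 was lost without any of the iAKI libraries or without control 4 or 5 (1.36 to 1.73 over all 8 omissions), Col6a1 without iAKI replicate 5 or control 4 or 5 (0.89 to 1.28), Col5a3 without iAKI replicate 5 or 7 or control 4 (1.24 to 1.57) and Col25a1 without iAKI replicate 6 or 7 or control 4 (-1.62 to -1.32). Within series A, with 2 controls, Col13a1 (1.09), Col6a2 (1.05) and Col6a1 (0.64) were no longer called, and Col1a1 stood at 2.47, Col15a1 at 1.81 and Col3a1 at 1.62.

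In Atp6b1v1 Pulldown iAKI raised 3 collagen genes, against 1.14% of all genes tested, and lowered 1, against 1.68%. Besides Col1a1, Col15a1 stood at 5.03, 5.76, 4.41 and 5.09 CPM in controls and 13.3, 7.40 and 22.4 in iAKI (1.5 ± 0.41, adjusted p = 0.0248). Col5a3 stood at 0.963, 1.21, 1.48 and 2.85 CPM in controls and 4.66, 3.61 and 5.75 in iAKI (1.49 ± 0.35, adjusted p = 0.0119). Col19a1, a FACIT-like chain, fell from 3.06, 7.55, 11.0 and 11.6 CPM to 1.58, 3.05 and 1.93 (-1.94 ± 0.43, adjusted p = 0.00843). The groups of Col19a1 lay only narrowly apart. The call of Col15a1 was lost in 6 of the 7 fits without a library, all but that without iAKI replicate 4 (1.04 to 1.82 over the 7), and within series A (0.93). The call of Col19a1 was lost without iAKI replicate 1 (-1.73) and within series A (-1.21). With both sexes all 4 were called, and in females alone Col1a1 (2.16) was called but Col5a3 (2.03), Col15a1 (1.08) and Col19a1 (-0.74) were not. The other 40 genes ranged from -1.92 (Col6a6) to 2.58 (Col9a1), and the median of the 44 was 0.339. Interstitial markers summed to 107.6 to 169 CPM in the controls and 129 to 196 in iAKI, which overlap. Of other markers 1 of 5 of the proximal tubule (median log2 fold change -0.936) and 1 of 6 endothelial (-0.123) fell. In the thick ascending limb 1 of 3 rose (0.309), and the part of these cells was not tested.

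In volume depletion type IV chains were among the genes called. In Hoxb7 Pulldown 7 of the 44 genes rose in vAKI, against 9.61% of all genes tested, and 7 fell, against 6.81%. The genes that rose were Col4a1, the type VI trio, Col15a1, Col5a1 and the transmembrane Col23a1. Those that fell were the type IV chains Col4a3, Col4a4 and Col4a6, Col27a1, the FACIT genes Col12a1 and Col20a1, and Col25a1. Among these the groups overlapped for Col27a1 and Col20a1. Neither Col1a1 (0.64 ± 0.47, adjusted p = 0.318) nor Col3a1 (0.49 ± 0.45, adjusted p = 0.438) was called. The other 30 genes ranged from -2.01 (Col6a6) to 1.83 (Col9a1), and the median of the 44 was -0.321. Both injuries were compared with the same controls.

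Type IV collagen split by chain. Col4a3 stood at 903, 601, 449 and 763 CPM in the male Hoxb7 controls and at 227, 274 and 290 in the 3 vAKI libraries, all of them below every control (-1.36 ± 0.33, adjusted p = 0.00224). Col4a4 stood at 700, 505, 284 and 528 CPM and at 132, 174 and 149 in vAKI (-1.73 ± 0.38, adjusted p = 0.00102). Col4a6 fell from 6.83, 9.01, 4.00 and 6.00 CPM to 2.62, 2.53 and 2.26 (-1.38 ± 0.27, adjusted p = 0.000376), and its neighbour Col4a5 went from 65.5, 76.5, 44.5 and 58.0 CPM to 27.5, 31 and 33.1. The groups were apart for Col4a5 too, but its log2 fold change of -0.996 ± 0.158 (adjusted p = 4.29e-05) was just inside the limit of 1.

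Of the Col4a1 and Col4a2 pair, Col4a1 rose and Col4a2 was not called. Col4a1 stood at 251, 188, 130 and 174 CPM in the controls and at 280, 620 and 458 in vAKI (1.29 ± 0.24, adjusted p = 0.000243). Col4a2 stood at 146, 120, 79.9 and 107.9 CPM and at 117, 270 and 179 in vAKI, which overlap (0.74 ± 0.26, adjusted p = 0.0269). In male Hoxb7 pulldowns the ratio of Col4a1 to Col4a3 CPM was 0.228 to 0.313 in the controls, 0.349 to 0.687 in iAKI and 1.24 to 2.27 in vAKI. These 3 groups did not overlap. Both genes were called in vAKI in these libraries, so the ratio restates those values. In Hoxb7 females of 5.5 months it was 0.169 to 0.911 in the controls, 0.257 to 0.320 in iAKI and 0.303 to 1.27 in vAKI, and the groups overlap. In Atp6b1v1 males of 5.5 months it was 0.274 to 0.483, 0.431 to 0.828 and 0.479 to 1.84, which overlap. In Atp6b1v1 females it was 0.212 to 0.317, 0.354 to 0.862 and 1.02 to 1.70, which do not. In males of iAKI Hoxb7 Pulldown Col4a3 had 681, 458, 670 and 646 CPM and Col4a4 had 468, 320, 430 and 470, within the range of the controls, while Col4a1 had 255, 314, 255 and 225 (0.51 ± 0.23, not called).

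**Figure D4:**
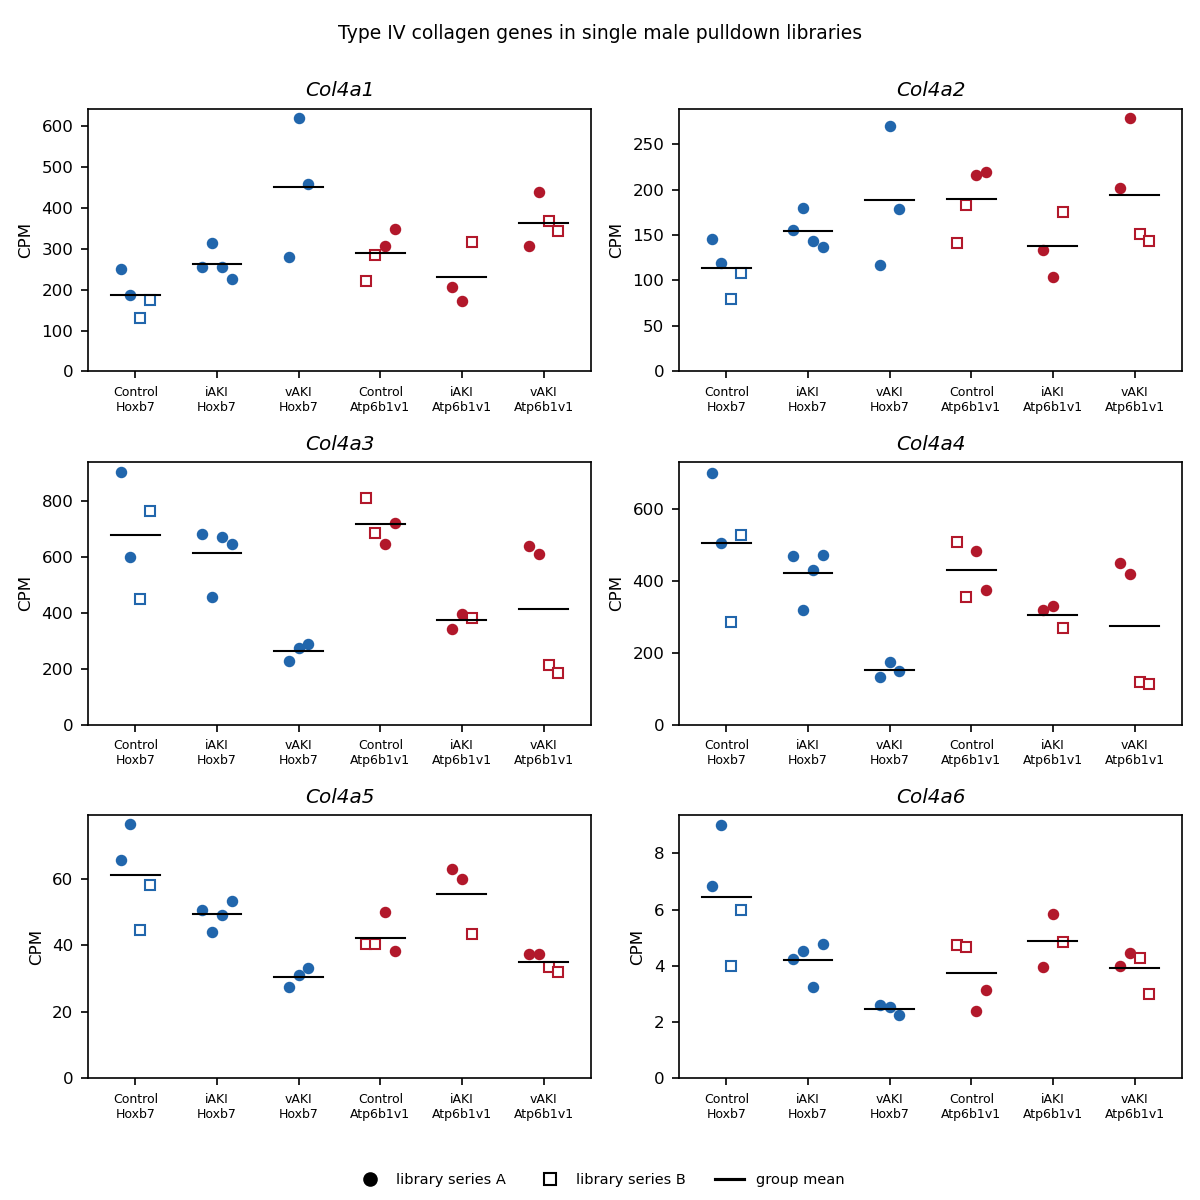
CPM of the 6 type IV genes in each male pulldown, by driver and treatment, on axes that start at 0. Points are single libraries, filled circles of series A and open squares of series B, and lines are group means. In vAKI Hoxb7 Pulldown Col4a3 (227 to 290 CPM), Col4a4 and Col4a6 lie below all controls and Col4a1 (280 to 620 CPM) above them, and in vAKI Atp6b1v1 Pulldown Col4a3 and Col4a4 divide by series.

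Over the 22 male libraries Pearson's r was 0.956 between Col4a3 and Col4a4, 0.866 between Col4a1 and Col4a2, and 0.721 between Col4a5 and Col4a6, against -0.355 between Col4a1 and Col4a3. These are descriptions over libraries that share treatments, drivers and series. Over the 21 Total libraries of uninjured mice the first 3 values were 0.322, 0.919 and 0.415.

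Within series A (3 vAKI libraries and 2 controls) Col4a3 (-1.5), Col4a4 (-1.98), Col4a6 (-1.67) and Col4a1 (1.06) were called as well. Without vAKI replicate 6, the highest for Col4a1, that gene fell just short of the limit at 0.999, and the calls of Col4a3, Col4a4 and Col4a6 held without each library in turn. Markers of podocytes, which also make the α3 and α4 chains, summed to 233 to 283 CPM in vAKI and 155 to 186 in the controls, with 1 of 5 called higher (median log2 fold change 0.168). Endothelial markers summed to 208 to 267 CPM against 97.3 to 182, with 1 of 6 called higher (0.336). Of other epithelial markers, none of 5 of the proximal tubule was called in vAKI (median log2 fold change 0.032) or iAKI (0.178). Against 6.81% of all genes tested that fell in vAKI and 0.784% in iAKI, 4 of 5 intercalated cell markers fell in vAKI (median log2 fold change -1.37) and 1 of 5 in iAKI (-0.471), 2 of 3 thick ascending limb markers in vAKI (-1.05) and 0 of 3 in iAKI (-0.495), 4 of 5 principal cell markers in vAKI (-1.47) and 3 of 5 in iAKI (-1.33), and 3 of 5 urothelium markers in vAKI (-1.16) and 1 of 5 in iAKI (-0.753). The part of cell composition in these values was not tested. In the females of 5.5 months, 4 vAKI against 4 control Hoxb7 libraries, Col4a3 ran from 241 to 592 CPM and from 386 to 1128 CPM, which overlap, and no collagen gene was called. With both sexes Col4a3 (-1.02) and Col4a6 (-1.01) were called, but not Col4a4 (-0.96) or Col4a1 (0.62). One of the female vAKI libraries, replicate 5, stood far from the other 3 in Col4a4 (121 CPM against 348 to 365).

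The remaining calls of vAKI in Hoxb7 Pulldown concerned matrix genes of several kinds. Col6a3 stood at 17.1, 17.3 and 12.3 CPM against 5.86, 6.39, 2.81 and 3.75 in the controls (1.73 ± 0.38, adjusted p = 0.00114), and Col6a2 (1.21 ± 0.30) and Col6a1 (1.12 ± 0.26) rose with it. Col15a1 stood at 7.45, 8.18 and 6.29 CPM against 2.99, 3.63, 2.32 and 1.59 (1.48 ± 0.43, adjusted p = 0.00934). Col23a1 rose by 1.34 ± 0.34 and Col5a1 by 1.26 ± 0.29. For Col6a3 and Col15a1 the vAKI libraries lay closer together than those of iAKI, but not for Col23a1 (6.51 to 10.3 CPM against 2.52 to 3.26). The interstitial markers summed to 92.7 to 123 CPM against 38.8 to 79.7 in the controls, with 1 of 8 called higher (median log2 fold change 0.399), and their part was not tested.

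Col25a1 fell furthest, from 1.90, 1.60, 2.86 and 1.88 CPM to 0.403, 0.543 and 0.329 (-2.25 ± 0.44, adjusted p = 0.000361). Col27a1, a fibrillar chain of cartilage and of many epithelia, stood at 332, 361, 52.5 and 225 CPM in the controls and at 54.5, 99.5 and 82 in vAKI, which overlap through the third control (-1.62 ± 0.58, adjusted p = 0.0323). Col20a1 (-1.09 ± 0.38) and Col12a1 (-1.0 ± 0.31) were at or near the limit, and of 11 alternative settings 9 kept the call of Col20a1 and 4 that of Col12a1, which stood at 0.034 in females alone. Calls of 6 of the 14 genes were lost without a single library. These were Col27a1 (-1.95 to -1.37; without any vAKI library or control 2 or 3), Col20a1 (-1.29 to -0.92; vAKI 4 or 6, control 2 or 3), Col12a1 (-1.16 to -0.74; vAKI 6 or 7, control 2), Col4a1, Col6a2 (0.99 without vAKI 6) and Col6a1 (0.92 without control 5). Within series A Col6a2 (0.95), Col6a1 (0.70), Col5a1 (0.94) and Col15a1 (1.16) were no longer called, and Col27a1 stood at -2.12.

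In Atp6b1v1 Pulldown vAKI raised 4 collagen genes, against 3.45% of all genes tested, and lowered 1, against 1.70%. Col6a1 was steadiest, at 3.98, 4.70, 3.94 and 3.42 CPM in the controls and 7.43, 9.44, 9.91 and 9.78 in vAKI (1.21 ± 0.23, adjusted p = 0.00155). Col19a1 fell from 3.06, 7.55, 11.0 and 11.6 CPM to 1.27, 0.961, 2.62 and 1.91 (-2.32 ± 0.40, adjusted p = 0.000748). Neither overlapped, and both were called without each library in turn, though Col6a1 stood at 0.96 within series A. In females alone neither was called (Col6a1 0.60, Col19a1 0.022).

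Col15a1 stood at 5.28, 11.5, 16.5 and 14.3 CPM in vAKI against 4.41 to 5.76 in the controls, which overlap (1.24 ± 0.39, adjusted p = 0.0344). It was called in only 1 of the 8 fits without a library, that without vAKI replicate 1 (1.04 to 1.49 over the 8), and not within series A (0.64). Col11a1 went from 0.048, 0.067, 0.126 and 0.127 CPM to 0.176, 0.320, 0.431 and 0.984 (2.27 ± 0.67, adjusted p = 0.0263), and lost its call without vAKI replicate 7 (1.70) or control 6, 9 or 11, and within series A (1.71). Col5a2 stood at 97.7, 29.4, 9.59 and 12.7 CPM against 5.09, 8.41, 13.8 and 14.8 (1.85 ± 0.55, adjusted p = 0.0266). Its call rested on vAKI replicate 1, without which the value was 0.74, and was also lost without control 10 or 11. In females alone Col11a1 was called (2.20) and Col15a1 (0.58) and Col5a2 (0.74) were not.

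Col4a3 and Col4a4 divided the male vAKI Atp6b1v1 libraries by series, and the females did not follow that division. In males Col4a3 stood at 640 and 612 CPM in the 2 vAKI libraries of series A and at 213 and 186 in the 2 of series B, while the controls stood at 648 and 721 in series A and 811 and 684 in series B. Col4a4 stood at 448 and 418, then 120 and 112, against 483 and 375, then 507 and 355. Every vAKI library of Col4a3 lay below every control, those of series A narrowly, and the fit gave -0.78 ± 0.29 (adjusted p = 0.0778, not called). Without vAKI replicate 1 or 2 it was called, at -1.07 and -1.03, and within series A it stood at -0.13. In females the 3 vAKI libraries ran from 195 to 217 CPM, as low as the males of series B although replicates 3 and 4 are of series A, and the 4 controls from 799 to 1023, and Col4a3 (-2.15) and Col4a4 (-1.93) were called. One of those 3, replicate 5, stood apart, with interstitial markers summing to 18.2 CPM against 120 and 140 in the others. What sets series A and B apart is not given in the labels, and its part was not tested. Depth differed as well. Male vAKI replicates 1 and 2 held 26900656 and 29051810 counts, replicates 6 and 7 held 14237156 and 15615422, and the 3 females 12618062 to 20316690. Collagen genes took 0.237% and 0.251% of counts, then 0.138% and 0.127%, then 0.0945% to 0.132%, shares that include Col4a3 and Col4a4. The part of depth was not tested. Among the cell type markers in males, 2 of 5 of intercalated cells (median log2 fold change -1.01), 2 of 5 of fat (-0.665) and 1 of 5 of the proximal tubule (0.025) fell in vAKI Atp6b1v1 Pulldown, and their part was not tested. In iAKI Col4a3 stood at 342, 397 and 383 CPM, below every control, and was not called (-0.94 ± 0.32, adjusted p = 0.0697).

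Setting iAKI directly against vAKI asked which collagens distinguish the stimuli, without the controls. In Hoxb7 Pulldown 9 of the 44 genes differed, against 14.7% of all genes tested, 8 of them higher in iAKI. Col1a1 (2.19 ± 0.47, adjusted p = 0.000923), Col3a1 (1.75 ± 0.47) and Col1a2 (1.34 ± 0.36) were higher in iAKI, and their vAKI libraries had 3.12 to 5.13, 7.94 to 14.5 and 11.4 to 16.5 CPM. Col4a4 (1.49 ± 0.37) and Col4a3 (1.23 ± 0.32) were higher in iAKI as well, as was Col27a1, at 288, 195, 272 and 319 CPM against 54.5, 99.5 and 82 (1.78 ± 0.58). Col12a1 stood at 21.3, 31.5, 19.4 and 28.2 CPM in iAKI and 11.5, 9.15 and 7.81 in vAKI (1.42 ± 0.31), and Col6a5, which averaged 5.82 counts, differed by 2.53 ± 0.62. Col23a1 was lower in iAKI, at 3.26, 2.80, 3.00 and 2.52 CPM against 8.86, 6.51 and 10.3 (-1.56 ± 0.34). Calls of 7 of the 9 held without each library, the others being Col1a2 (0.88 without iAKI replicate 5) and Col27a1 (lost without vAKI replicate 4 or 7, 1.56 to 1.98 over all 7). Higher in iAKI were 2 of 5 intercalated cell (median 0.543), 1 of 3 thick ascending limb (0.727) and 1 of 6 macrophage and leukocyte markers (0.187). Of 5 principal cell markers 2 were higher and 1 lower (0.674). Lower were 1 of 5 fat (-0.338), 1 of 6 endothelial (0.133) and 1 of 5 podocyte markers (-0.028). Their part was not tested.

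In Atp6b1v1 Pulldown 3 genes differed, against 11.6% of all genes tested. Col1a1 (2.12 ± 0.43, adjusted p = 0.000861) and Col3a1 (1.79 ± 0.44, adjusted p = 0.00395) were higher in iAKI, where Col3a1 had 19.1 to 58.6 CPM against 9.78 to 11.8 in vAKI. Col23a1 was lower, at 1.33, 2.59 and 3.12 CPM against 4.54, 8.28, 12.2 and 7.53 (-1.81 ± 0.36, adjusted p = 0.000689). All 3 were called without each library in turn. In the same comparison 5 of 5 fat markers (median 1.62), 3 of 5 intercalated cell markers (1.35) and 2 of 3 thick ascending limb markers (1.10) were higher in iAKI, while of 5 proximal tubule markers 3 were lower and 1 higher (-1.11), and their part was not tested. In females alone these 3 were called as well, and Col4a3 was higher in iAKI there (1.03) where the males had -0.17. Col1a1, Col3a1 and Col23a1 were called in this comparison with both drivers, whose libraries are separate.

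A term for the injury effect in Atp6b1v1 Pulldown minus that in Hoxb7 Pulldown asked whether a response depended on the driver. In iAKI 1 gene passed, against 3.49% of all genes tested: Col14a1 (-1.27 ± 0.32, adjusted p = 0.0187), with 5.19, 6.92, 4.62 and 4.35 CPM in Atp6b1v1 controls and 2.98, 2.73 and 4.10 in iAKI, and 2.70, 3.73, 3.11 and 2.02 CPM in Hoxb7 controls and 4.17 to 4.43 in iAKI. In vAKI 2 passed, against 2.93%: Col11a1 (3.20 ± 0.85, adjusted p = 0.0315) and Col4a6 (1.47 ± 0.36, adjusted p = 0.0209). None of these 3 calls held in all 15 fits without a library. Col14a1 was lost without iAKI Atp6b1v1 replicate 1 or 4 (-1.42 to -1.11 over the 15). Col4a6 was lost without Hoxb7 control 3 or vAKI Hoxb7 replicate 6 or 7 (1.27 to 1.63), and Col11a1 in 7 of the fits (2.63 to 3.51): those without any vAKI Hoxb7 library, Hoxb7 control 3, Atp6b1v1 control 9 or 11, or vAKI Atp6b1v1 replicate 7. For the other genes a call with only 1 driver is therefore not a shown difference between the drivers. Col4a3, for which the effect of vAKI was -1.36 in Hoxb7 and -0.78 in Atp6b1v1 Pulldown, is one of them. By the same term 4 of 5 principal cell markers were higher in iAKI (median 1.695) and 3 of 5 in vAKI (1.895). In vAKI 1 of 5 urothelium markers was higher too (1.311). In iAKI and vAKI 1 of 8 interstitial markers (-0.366 and -0.573), 1 of 6 endothelial (-0.546 and -0.638) and 1 of 5 proximal tubule markers (-1.113 and 0.174) were lower. Their part was not tested.

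Col18a1 was called in none of the comparisons as designed, and in females alone it was called for iAKI minus vAKI in Atp6b1v1 Pulldown (1.11). In males it stood at 171, 220, 115 and 136 CPM in the Hoxb7 controls, 135, 197, 135 and 154 in iAKI and 100.9, 171 and 146 in vAKI. In Atp6b1v1 Pulldown it stood at 162, 135, 111 and 135 CPM, 211, 153 and 180, and 126, 174, 134 and 122. The 3 groups overlap with each driver, with log2 fold changes against control between -0.20 and 0.41.

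Sex and age were compared in Total RNA. Between males and females 5 of the 44 genes differed, against 5.85% of all genes tested. Col6a6, a type VI chain, ran at 0.174, 0.323 and 1.14 CPM (lowest, median, highest) in the 10 females and at 2.5, 15.7 and 30.8 in the 11 males, with no overlap (4.84 ± 0.45, adjusted p = 9.17e-09). Col19a1 ran at 0.214, 0.560 and 1.08 CPM in females and 1.28, 5.01 and 9.82 in males, also without overlap (2.98 ± 0.31, adjusted p = 6.52e-08). Col17a1 (-2.15 ± 0.48), Col2a1 (-1.64 ± 0.40) and Col11a1 (-1.54 ± 0.40) were lower in males, with overlap and with means of 9.14, 2.81 and 7.76 counts. Sex was not tested in the pulldowns. In the control pulldowns Col6a6 ran from 0.082 to 0.909 CPM in female and from 0.844 to 3.11 in male Hoxb7 libraries, which overlap, and from 0.043 to 0.766 and from 2.39 to 8.76 in the Atp6b1v1 libraries, which do not. Col19a1 ran from 0.370 to 1.40 CPM in female and from 1.77 to 5.20 in male Hoxb7 controls, and from 0.694 to 1.20 and from 3.06 to 11.6 in the Atp6b1v1 controls. Between 3 and 5.5 months 0 genes were called, against 0.359% of all genes tested. Of the 44, 7 had an unadjusted p under 0.05 in edgeR, and the share of all genes that did is not given here. DESeq2 called 0. The Total libraries of 3 months were 2 females of series B with Hoxb7Cre and 3 males of series C with Atp6b1v1Cre. None was of series A, so age is partly tied to series and genotype.

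The genes that act on collagen were read beside the collagens themselves. In iAKI Hoxb7 Pulldown 4 of 15 genes of procollagen processing and crosslinking rose, against 1.52% of all genes tested, and 0 fell, against 0.784%: Adamts2, which removes the amino propeptide (1.89), Tll1 (1.30) and Bmp1 (1.02), which remove the carboxyl propeptide, and the crosslinking enzyme Loxl1 (1.17). Of 8 fibril partners Bgn (biglycan, 2.12) and Fn1 (fibronectin, 1.31) rose and Fmod (fibromodulin) fell (-1.5), and of 10 receptors the endocytic collagen receptor Mrc2 rose (1.10). None of 20 synthesis enzymes and chaperones, nor of 15 basement membrane partners, was called. In vAKI Hoxb7 Pulldown, where 9.61% of all genes rose and 6.81% fell, Adamts14 (1.71), Tll1 (1.67), Adamts2 (1.40), Bgn (1.11), the collagen chaperone Fkbp10 (1.27) and the laminin chain Lamc3 (1.35) rose. Itga2, an integrin chain that binds collagen (-1.89), Itga10 (-1.80), Lair1 (-1.64), Plod3, a lysyl hydroxylase (-1.29), Lama3 (-1.67) and Fmod (-1.69) fell. In Atp6b1v1 Pulldown 1.14% of all genes rose and 1.68% fell in iAKI, and 3.45% rose and 1.70% fell in vAKI. Pcolce, an enhancer of propeptide removal, rose in iAKI (1.46), and Adamts14 (-1.86), Fmod (-1.66), Adamts3 (-1.18) and Lama1 (-1.09) fell, while Fmod (-1.64) and Lair1 (-1.63) fell in vAKI. In the control pools all 8 fibril partners were lower than in Total RNA with both drivers, as were 9 of the 20 synthesis genes in Hoxb7 and 8 in Atp6b1v1 Pulldown, against 17.9% and 16.4% of all genes tested.

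Col27a1 and Col8a1, a short chain collagen, followed the library series in control mice, and the other collagen genes were not screened for series. In the male Hoxb7 controls Col1a1, Col3a1, Col15a1 and Col6a3 were also lower in series B than in series A. In the male Atp6b1v1 controls the levels of these genes overlapped between the series. Col27a1 ran from 229 to 434 CPM (median 282) in the 14 series A controls and from 46.6 to 240 CPM (median 96.8) in the 28 of series B and C. Col8a1 ran from 15.3 to 64.6 CPM (median 37.7) and from 4.17 to 20.2 CPM (median 7.96). The split ran through Total RNA and both pulldowns alike. All iAKI and vAKI Hoxb7 libraries of males are of series A, so the Col27a1 values of the Hoxb7 controls, 332 and 361 CPM in series A against 52.5 and 225 in series B, bear on its call above.

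**Figure D5:**
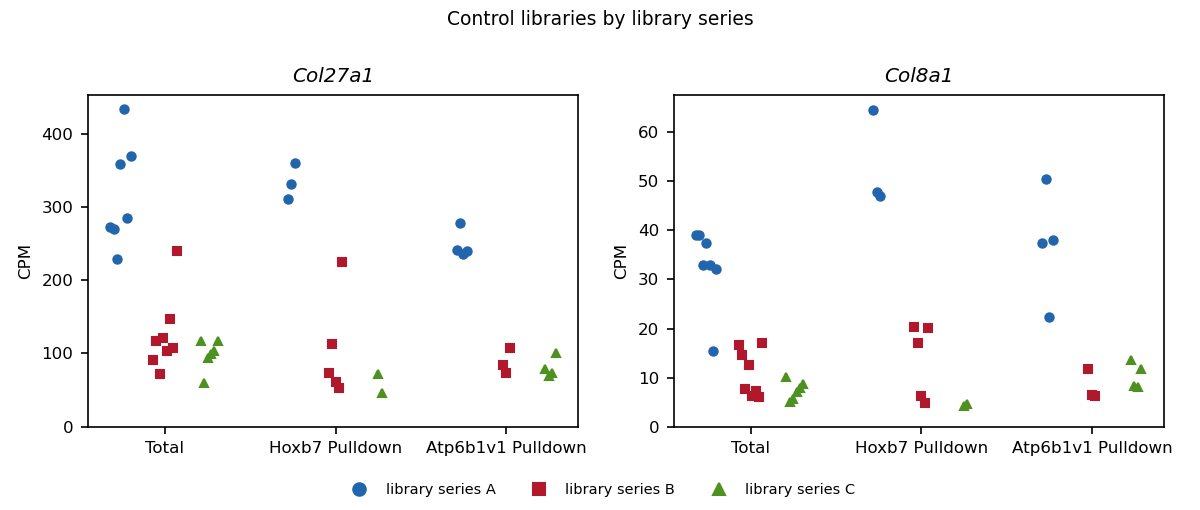
CPM of Col27a1 and Col8a1 in each control library, by RNA pool and library series. Points are single libraries, circles of series A, squares of series B and triangles of series C. Series A lies mostly above B and C in every pool, at 229 to 434 against 46.6 to 240 CPM for Col27a1.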

How the data were processed

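The authors deposited 1 table of raw counts per gene for the 69 libraries. Per the labels and the study's methods, TruSeq libraries were base-called with CASAVA 1.8.2, trimmed with Trimmomatic 0.36, aligned to mm10 with STAR 2.5.3a and counted with HTSeq 0.6.1p2 at its default settings (versions from the submitters' processing notes). The annotation is not given in the sources used here. Of the 44 genes 28 overlap another annotated gene, and how reads in these overlaps were counted was not checked.

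Genes with at least 2 counts over all libraries (21175) were tested with edgeR 4.0.16 in R 4.3.3 (TMM, quasi-likelihood test, Benjamini-Hochberg adjustment). Injury was fitted on the 22 males, pools on the 42 controls with sex as a covariate, and sex and age on the 21 Total libraries. CPM are on 1 TMM scale. Levels between genes were divided by union exon length from GENCODE M21 (GRCm38). The code was tested on simulated counts. Replicates of a group differed by a chi-square per degree of freedom of at least 10.2, so none was counted as a duplicate. Libraries of 12618062 to 30305464 counts limit the precision of genes with few counts.

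Every called collagen gene was named. Values per library were given for Col1a1, Col3a1, the type IV genes and Col18a1, and for up to 6 called genes a comparison with the largest changes among those averaging at least 10 counts. The members and lists were chosen with earlier results of these data known. Alternatives were DESeq2 1.42.0, its size factors, filters, sexes, ages, genotype, library series, a replicate block, fewer groups in the fit and leaving out each library. A fit within series A was chosen after seeing the data.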

Additional observations from a re-analysis of the deposited data

Results flagged for a closer look

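In each group of 4 to 10 libraries of 1 sex and age, the highest or lowest level of each collagen gene with enough counts was compared with the others by Dixon's ratio of gap to range. Of 270 such groups 17 held a library far from the rest, and chance marks about 1 in 20 groups.

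The female vAKI Hoxb7 library of replicate 5 accounts for 5 of the 17. It had 11.5 CPM of Col23a1 where the other 3 had 1.71 to 2.89, 18.4 of Col26a1 (6.10 to 7.87), 31.5 of Col5a2 (2.94 to 4.62), 1.02 of Col19a1 (0.241 to 0.36) and only 121 of Col4a4 (348 to 365). Replicate 1 of the same group had 5.73 CPM of Col4a6 against 3.54 to 3.78.

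Among the male libraries of the injury comparisons, Hoxb7 control 5 had 9.51 CPM of Col16a1 against 1.85 to 2.07, and iAKI Hoxb7 replicate 5 had 458 CPM of Col4a3 against 646 to 681. In iAKI Hoxb7 replicate 6 Col6a6 stood at 2.57 CPM, where the others had 0.076 to 0.301. Atp6b1v1 control 11 had 6.16 CPM of Col23a1 (3.58 to 3.89) and 0.368 of Col6a5 (0.290 to 0.297). In vAKI Atp6b1v1 replicate 1 Col6a3 stood at 12.5 CPM against 20.2 to 20.8, and Col6a5 at 0.176 against 0.058 to 0.066. Both Col6a5 values rest on few counts, 11 against 6 to 7 in the controls and 5 against 1 to 2 in vAKI.

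Among the female controls, Hoxb7 replicate 1 had 311 CPM of Col27a1 against 46.6 to 72.2, and it is the only library of series A in that group. Atp6b1v1 replicate 7 had 27.3 CPM of Col3a1 (15.3 to 16.3), and replicate 8 had 4.42 of Col5a3 (1.22 to 1.62). Total replicate 16 had 1.14 CPM of Col6a6, where the other females of that age had 0.174 to 0.392.

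The effect of injury differed between the drivers, Atp6b1v1 minus Hoxb7, in 3 genes by the test of the difference itself (edgeR's quasi-likelihood test). In iAKI this was Col14a1 (-1.27 on the log2 scale), 1 of the 44 genes against 3.49% of all genes tested. In vAKI they were Col11a1 (3.20) and Col4a6 (1.47), 2 of the 44 against 2.93%. Both counts are near those shares. Each of these calls was lost when at least 1 library was left out, as given above.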

How the results depend on the processing

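Over the alternatives, 2939 values of single collagen genes stayed on their side of the threshold (some uncalled ones changed sign), 190 lost a call, 71 gained one and 8, called in either fit, turned direction, and 164 of 220 counts of called genes stayed within 1.5 times. The cause of the changes was not tested, and the counts of called genes below stand without the share of all genes called in each fit. These 8 turns came from females alone: Col5a3 at -0.71 in iAKI Hoxb7 Pulldown; Col23a1 at -0.20, Col15a1 at -0.056, Col27a1 at 0.59 and Col12a1 at 0.034 in vAKI Hoxb7 Pulldown; Col19a1 at 0.022 in vAKI Atp6b1v1 Pulldown; Col4a3 at 1.03 for iAKI minus vAKI in Atp6b1v1 Pulldown; and Col2a1 at -0.078 for Atp6b1v1 Pulldown minus Total. In the order iAKI and vAKI in Hoxb7 Pulldown, iAKI and vAKI in Atp6b1v1 Pulldown, iAKI minus vAKI in Hoxb7 and in Atp6b1v1 Pulldown, females alone gave 1, 0, 2, 9, 1 and 14 called genes and 0 for both driver differences, and both sexes gave 5, 7, 7, 8, 5 and 8, with 0 for the driver difference in iAKI. Without the fold limit the counts were 7 for iAKI minus vAKI in Atp6b1v1 Pulldown, 2 for the driver difference in iAKI, 35 for Atp6b1v1 Pulldown minus Total, 11 between the pulldowns and 15 for sex. The driver difference in iAKI gave 2 genes with DESeq2, with 25 males, with only the groups compared and with series as a covariate, and 6 within series A; that in vAKI gave 4 with DESeq2, 6 with series as a covariate and 10 within series A. In vAKI Atp6b1v1 Pulldown 3 genes were called with only the groups compared and 2 within series A, where iAKI minus vAKI gave 5. Between the pulldowns 7 were called in males, and 2 in females, at 5.5 months alone and with series as a covariate. Leaving out each library gave 6 to 11 genes for iAKI and 11 to 15 for vAKI in Hoxb7 Pulldown, 2 to 4 and 3 to 9 in Atp6b1v1 Pulldown, 8 to 9 and 3 to 5 for iAKI minus vAKI, and 0 to 3 and 0 to 4 for the driver differences. Leaving out each of the 5 Total libraries of 3 months gave 0 for age.

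Same-numbered libraries deviated together in some pairs and not in others. The mean r was -0.178 over 2 pairs of iAKI and control and -0.016 over 3 pairs of iAKI and vAKI in Hoxb7 Pulldown. In the control pools r ran from -0.251 to 0.577 over 10 Hoxb7 and Total pairs (3 over 0.1), from -0.102 to 0.555 over 11 Atp6b1v1 and Total pairs (6 over 0.1) and from -0.394 to 0.32 over 5 pairs of the pulldowns (1 over 0.1), and 5, 6 and 3 of these pairs were of different sex. Since not every pair was over 0.1, the numbers were not taken to pair the libraries. By library number, control pulldown and Total libraries run in the same order of driver, sex and age, and 5 same-numbered pairs also match in that order (r from 0.352 to 0.577). Whether such libraries share a mouse is not given in the labels. The fits treat all libraries as independent, and the replicate block of the pools joins many libraries that do not match in that order. A replicate block called 12 genes for iAKI and 9 for iAKI minus vAKI in Hoxb7 Pulldown, 22 and 16 for the pulldowns minus Total and 9 between the pulldowns. No paired analysis was possible for the other injury comparisons because their groups share fewer than 2 numbers.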
